A study of Mus musculus with 12 samples.

Results

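The genes described here are linked to the granules of neutrophils, basophils and mast cells, most of them encode enzymes, and they were chosen by name. Mpo, Elane, Prtn3 and Ctsg belong to neutrophil primary granules, Cpa3, Mcpt8 and Hdc to mast cells and basophils, and Ms4a3 marks granulocyte-monocyte progenitors. Of these 8 symbols, 7 are rows of the deposited expression table of 13016 genes, and Ms4a3 was not analysed here. A filter of at least 1 RPKM (reads scaled to transcript length and library size) in at least 4 of the 12 libraries kept 10690 genes, among them 6 of the 7. Elane did not pass that filter and is described by its values. The filter can favour a gene that is high in 1 group alone: Hdc reached 1 RPKM in 1 dKO library and 3 dKO_Flt3ITD libraries, and Prtn3 in 1, 2 and 3 libraries of the control, dKO and dKO_Flt3ITD groups.

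Each library was made by full-length SMARTer amplification from 100 flow-sorted early thymic progenitors, the least mature T-lineage cells of the thymus, of C57BL/6 mice. There were 3 groups of 4 libraries, and all mice carried floxed alleles of the histone methyltransferase gene Ezh2 and of the transcription factor gene Runx1 (Ezh2 fl/fl and Runx1 fl/fl). The control group had no Cre. The dKO group also carried Rag1Cre+, a recombinase driven from a gene that is switched on in early lymphoid progenitors, and the dKO_Flt3ITD group carried in addition the internal tandem duplication of the receptor gene Flt3 (Flt3 ITD/+). The labels do not say that the libraries of a group came from separate animals, so the p-values measure the spread between libraries, which may be technical.

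Primary granules are filled at the promyelocyte stage. Myeloperoxidase makes hypochlorous acid, and neutrophil elastase, proteinase 3 and cathepsin G are serine proteases that are trimmed to their active form by the dipeptidase Ctsc and packed on the proteoglycan Srgn. Carboxypeptidase A3 is a protease of mast cell granules, Mcpt8 is a basophil protease, and histidine decarboxylase makes the histamine that both cell types store. Early thymic progenitors keep some capacity to form myeloid cells, and Mpo and Cpa3 transcripts are also known from haematopoietic progenitors that are not yet committed to the granulocyte lineage.

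The protease genes lie in 2 clusters, and the DNA before the RefSeq starts of the 4 primary granule genes and of Cpa3, on which the results turn, is printed to show what they share. In the GENCODE M21 annotation of GRCm38, Prtn3 (chromosome 10, 79874476 to 79883174, plus strand) and Elane (chromosome 10, 79886247 to 79888215, plus strand) are separated by 3072 bases. Ctsg (chromosome 14, 56099881 to 56102574) and Mcpt8 (chromosome 14, 56082166 to 56085273) are both on the minus strand, 14607 bases apart. Mpo is on chromosome 11 (87793581 to 87804413, plus strand), Cpa3 on chromosome 3 (20215620 to 20242181, minus strand) and Hdc on chromosome 2 (126593667 to 126619299, minus strand), and all 7 are annotated as protein coding. The stretches below come from RefSeq (GRCm38.p6), run 5′ to 3′ on the strand of the gene, begin 250 bases before the RefSeq start, and end before the first base that GENCODE M21 annotates as exon. The Prtn3 stretch lies inside the GENCODE gene, which begins further upstream. Capitals mark AGGAAGT, a sequence of the type bound by ETS factors such as PU.1, AGATAA, of the type bound by GATA factors, and TGTGGT, of the type bound by RUNX factors, which appears as ACCACA where it is on the other strand.
Prtn3, chr10:79879417-79879613, plus strand: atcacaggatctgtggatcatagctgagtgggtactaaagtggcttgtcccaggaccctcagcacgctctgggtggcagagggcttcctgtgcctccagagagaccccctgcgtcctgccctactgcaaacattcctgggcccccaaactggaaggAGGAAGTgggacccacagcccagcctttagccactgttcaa
Elane, chr10:79886062-79886246, plus strand: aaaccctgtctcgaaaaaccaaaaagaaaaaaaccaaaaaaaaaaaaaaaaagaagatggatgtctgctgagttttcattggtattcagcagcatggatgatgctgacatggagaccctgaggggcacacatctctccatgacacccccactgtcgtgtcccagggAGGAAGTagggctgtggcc
Mpo, chr11:87793534-87793580, plus strand: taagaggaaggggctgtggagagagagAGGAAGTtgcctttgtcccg
Ctsg, chr14:56102575-56102824, minus strand: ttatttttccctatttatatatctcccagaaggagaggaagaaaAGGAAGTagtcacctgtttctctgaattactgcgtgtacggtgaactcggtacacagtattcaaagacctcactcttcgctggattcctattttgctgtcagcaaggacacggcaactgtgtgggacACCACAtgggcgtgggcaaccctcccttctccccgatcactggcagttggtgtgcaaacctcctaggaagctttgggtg
Cpa3, chr3:20242182-20242431, minus strand: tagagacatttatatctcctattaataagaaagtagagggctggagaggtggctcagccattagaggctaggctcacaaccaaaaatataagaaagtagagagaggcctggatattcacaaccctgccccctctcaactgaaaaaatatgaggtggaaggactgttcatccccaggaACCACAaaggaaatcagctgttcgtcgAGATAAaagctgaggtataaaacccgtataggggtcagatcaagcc

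The motifs were chosen after these sequences were seen, and a match is a description and not a binding site. Searched on both strands over the 250 bases before the start, AGGAAGT was present for 4 of the 8 genes, namely Prtn3, Elane, Mpo and Ctsg, against 7.69% of the 32851 windows of the same length in the RefSeq table. TGTGGT was present for 3 of 8, Ctsg, Cpa3 and Mcpt8, against 14.0% of windows, and AGATAA for Cpa3, against 9.99%. Counted from the RefSeq starts, the ETS-type match of Prtn3 and Elane lies at nearly the same distance, with its first base at -94 and -84, in Ctsg at -206 and in Mpo at -223. These distances depend on the annotation. By GENCODE the Prtn3 match lies inside the gene, and the Elane and Mpo matches lie closer to the gene start than by RefSeq. The RUNX-type match of Cpa3 begins at -73 and its GATA-type match at -46. AACGG, of the type bound by MYB, was found for Prtn3 and Elane, against 14.5% of windows, and TTNNGCAA, of the type bound by C/EBP factors, for none of the 8, against 9.56%.

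Whole reads could be recovered from the deposited values, and they sum to 12924981 to 32763597 per library. Control 1 was the library least like the rest, with a mean r of 0.786 to the others, against 0.83 to 0.86 for the other 11. In the check of the labels, Ezh2 ranged from 32.8 to 45.7 RPKM in controls, 16.9 to 29.8 in dKO and 12.03 to 24.6 in dKO_Flt3ITD libraries, without overlap between the control group and either other group, while Runx1 was at 16.3 to 25.3, 35.9 to 58.2 and 32.6 to 58.8 RPKM. A value over a whole gene does not show whether floxed exons were removed. Early T-lineage genes were detected in all groups, except that Cd3g was at 0 in all dKO_Flt3ITD libraries. The summed level of the list (14 of 16 listed genes are in the table) was 1033 to 2387 RPKM in controls, 428 to 488 in dKO and 220 to 432 in dKO_Flt3ITD libraries. Dntt made up much of the control sums, at 389 to 1379 RPKM. Of 13 tested genes of the list, 10 had a negative and 3 a positive log2 fold change from control to dKO.

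Mpo was the most abundant of these genes in control progenitors. The control libraries held 66.0, 129, 230 and 161 RPKM, the dKO libraries 105, 67.6, 53.3 and 15.4, and the dKO_Flt3ITD libraries 56.5, 7.71, 12.9 and 721. The control mean stood above 95.3% of the genes in the table, and dKO_Flt3ITD 1, 2 and 3 were below every control library while dKO_Flt3ITD 4 was above every other library. The groups overlapped in each comparison. Group means were 146 ± 68.1, 60.2 ± 36.9 and 199.6 ± 348 RPKM (SD, n = 4 each), and dKO_Flt3ITD 4 held 90.3% of the summed Mpo signal of its group. Since each library is bulk RNA of 100 cells, fewer cells of a type and less RNA per cell cannot be told apart.

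Elane, the neutrophil elastase gene, was listed at 0 in the 4 control libraries, where 3 reads, the limit that a count of 0 allows, correspond to 0.113 to 0.164 RPKM. It was also at 0 in 3 dKO libraries, with 3.35 RPKM in dKO 2. The dKO_Flt3ITD libraries held 8.78, 0.117, 0.0440 and 105 RPKM, which are 220, 2, 1 and 2345 reads. Signal well above that limit was thus present in 2 of 4 dKO_Flt3ITD libraries and 1 of 4 dKO libraries, and 92.2% of the dKO_Flt3ITD signal came from dKO_Flt3ITD 4.

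Prtn3, the proteinase 3 gene next to Elane, was read in more libraries. It was at 0 in control 1, 3 and 4, where 3 reads correspond to 0.107 to 0.124 RPKM, and at 3.98 RPKM (77 reads) in control 2. The dKO libraries held 8.15, 22.2, 0 and 0.0554 RPKM, and the dKO_Flt3ITD libraries 55.3, 0.332, 9.44 and 273. The 3 highest values were those of dKO_Flt3ITD 4, dKO_Flt3ITD 1 and dKO 2, which are also the 3 libraries with Elane above 1 RPKM. Group means were 0.996 ± 1.99, 7.60 ± 10.5 and 84.5 ± 128 RPKM (SD, n = 4), and the groups overlapped.

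Ctsg, the cathepsin G gene, was read in every library. Controls held 0.442, 5.76, 13.7 and 8.12 RPKM, dKO libraries 19.7, 20.4, 14.4 and 8.95, and dKO_Flt3ITD libraries 184, 42.6, 15.3 and 218. The lowest dKO_Flt3ITD library (15.3) was above the highest control (13.7), while the dKO group overlapped with both. Group means were 7.0 ± 5.49, 15.9 ± 5.33 and 115 ± 101 RPKM (SD, n = 4). dKO_Flt3ITD 4 held 47.4% of its group's signal, a smaller share than for Mpo, Elane and Prtn3.

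Cpa3, the mast cell carboxypeptidase gene, was at 16.2 RPKM or more in every library. The values were 16.2, 113, 78.3 and 94.1 RPKM in controls, 223, 107, 319 and 129 in dKO and 190, 183, 566 and 318 in dKO_Flt3ITD libraries. All dKO_Flt3ITD libraries were above all controls, and dKO 2 lay inside the control range. Group means were 75.3 ± 41.9, 195 ± 96.8 and 314 ± 179 RPKM (SD, n = 4). In contrast to the neutrophil proteases, the highest library was dKO_Flt3ITD 3, with 45.0% of the group's signal, and with dKO_Flt3ITD 4 left out the group mean was 313 ± 219 RPKM (n = 3).

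The other mast cell and basophil genes were low. Mcpt8, the basophil protease gene, held 0, 9.22, 12.7 and 8.55 RPKM in controls, 14.5, 10.7, 0 and 0 in dKO and 0.613, 3.20, 0 and 12.3 in dKO_Flt3ITD libraries. It was listed at 0 in at least 1 library of every group, and the groups overlapped. Hdc, the histidine decarboxylase gene, held 0.682, 0.316, 0.202 and 0 RPKM in controls, 0, 2.59, 0.328 and 0.429 in dKO and 1.65, 2.10, 0.562 and 31.8 in dKO_Flt3ITD libraries. Of its dKO_Flt3ITD signal 88.1% came from dKO_Flt3ITD 4, and the other 3 libraries averaged 1.44 ± 0.790 RPKM.

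**Figure D1:**
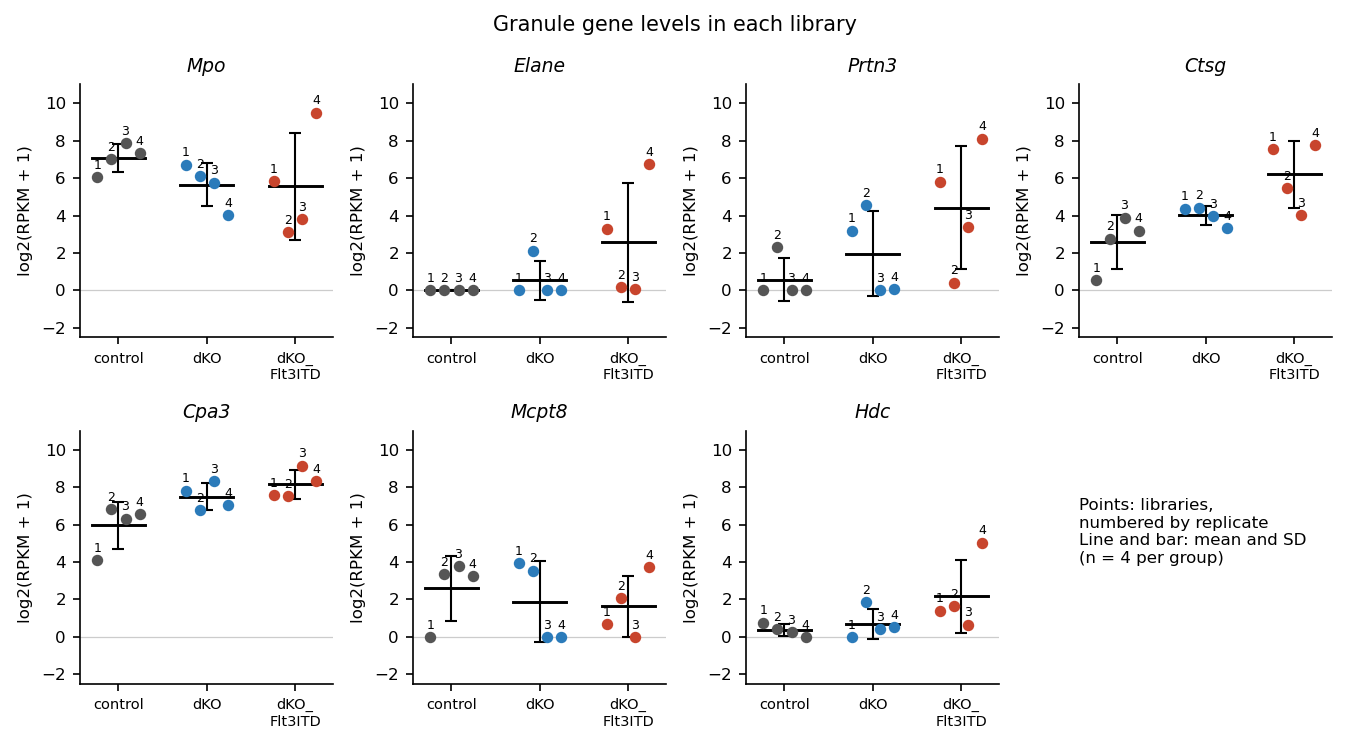
Expression of the 7 granule genes in each library, as log2(RPKM + 1) on the vertical axis and group on the horizontal axis, with a numbered point per library and a line and bar for the mean and SD of the plotted values of each group (n = 4). Ctsg and Cpa3 were the 2 genes whose dKO_Flt3ITD libraries all lay above all control libraries, and dKO_Flt3ITD 4 was the highest library for Mpo, Elane, Prtn3, Ctsg and Hdc.

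The first comparison asks how progenitors with Rag1Cre-driven deletion of Ezh2 and Runx1 differ from controls. None of the 6 tested members passed an adjusted p of 0.05 in limma on log2(RPKM + 1) over all 10690 genes, where 1.02% of all genes did. By limma-voom on the recovered reads it was also 0 of 6, and 1 of 6, Cpa3, had an unadjusted limma p under 0.05, against 9.18% of all genes. Cpa3 had a log2 fold change of 1.53 (SE 0.54, adjusted p = 0.297, limma), Ctsg of 1.43 (SE 0.77, adjusted p = 0.651) and Prtn3 of 1.37 (SE 1.31, adjusted p = 0.869). For Mpo it was -1.41 (SE 0.98, adjusted p = 0.783), for Mcpt8 -0.72 (adjusted p = 0.934) and for Hdc 0.34 (adjusted p = 0.963). The groups overlapped for all 6, while 6.3% of all genes did not overlap in either direction. The members' median log2 fold change was 0.86, with 4 positive and 2 negative, beside 0.01 over all genes.

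The second comparison asks what the Flt3 duplication adds to the double deletion. No member passed in limma or limma-voom, in a comparison where 0% of all genes did, and 1 of 6, Ctsg, had an unadjusted p under 0.05, against 7.71% of all genes. The log2 fold change from dKO to dKO_Flt3ITD was 2.48 for Prtn3 (SE 1.31, adjusted p = 0.688, limma), 2.18 for Ctsg (SE 0.77, adjusted p = 0.499) and 1.49 for Hdc (SE 0.74, adjusted p = 0.677). Cpa3 was at 0.66 (adjusted p = 0.819), Mpo at -0.09 (adjusted p = 0.991) and Mcpt8 at -0.25 (adjusted p = 0.977). The 95% interval for Mpo ran from -2.16 to 1.98, so differences of several-fold either way are inside it. No member was free of overlap between these groups, against 4.28% of all genes, and the members' median was 1.08 beside 0.00 over all genes.

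The third comparison sets dKO_Flt3ITD against the same control libraries as the first, so the values of these comparisons are not independent. Cathepsin G was the member that rose: Ctsg was higher in 4 of 4 libraries, with a log2 fold change of 3.61 (SE 0.77, 95% interval 1.98 to 5.23, adjusted p = 0.0247, limma). Over all genes 1.5% passed in either direction, and 0.992% rose. By limma-voom on the recovered reads 0 of 6 members passed, with an adjusted p of 0.222 for Ctsg. Cpa3 was also higher in 4 of 4 libraries, at 2.19 (SE 0.54, 95% interval 1.05 to 3.33), and did not pass (adjusted p = 0.0541, limma). These 2 of 6 members had groups without overlap in the higher direction, against 4.16% of all genes. Prtn3 had the largest log2 fold change, 3.85, with an SE of 1.31 and an adjusted p of 0.186. Hdc was at 1.83 (adjusted p = 0.284, limma), Mcpt8 at -0.97 (adjusted p = 0.746) and Mpo at -1.50 (adjusted p = 0.542). The members' median was 2.01, beside 0.00 over all genes, and 4 of 6 had an unadjusted p under 0.05, against 13.4% of all genes. Among those 4 are Hdc and Prtn3, which met the filter only with their dKO_Flt3ITD libraries counted. The filter thus favours them in this count and in the medians of this and the second comparison, and no conclusion is drawn from these.

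The Ctsg call was kept in 8 of the 12 fits that left out a library. Those 8 include every fit without a dKO library, which is outside this comparison and enters only through the shared spread. All losses of the Ctsg call came on leaving out a library of the groups compared. Without control 1, control 2, dKO_Flt3ITD 1 or dKO_Flt3ITD 4 its adjusted p was 0.0691, 0.0515, 0.0975 or 0.0625, and over all 24 alternatives, of which it passed in 14, it ranged from 0.00431 to 0.222, with a log2 fold change of 2.39 to 4.33. Cpa3 passed in 3 of 24 alternatives (adjusted p 0.0279 to 0.153, limma), with a log2 fold change of 1.57 without control 1, the control in which it was lowest.

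Leaving out dKO_Flt3ITD 4 changed which member passed. Without that library the log2 fold change of Mpo against control was -2.81, with an adjusted p of 0.0418 (limma, against 0.0337 to 0.834 over its alternatives), and the 3 remaining libraries held 25.7 ± 26.8 RPKM, each below the lowest control. Ctsg was then at 3.08, with the adjusted p of 0.0625 given above. Prtn3 passed when dKO_Flt3ITD 2, its lowest library in that group, was left out (log2 fold change 5.19, adjusted p = 0.0429, limma, against 0.0429 to 0.392 over its alternatives). In the first comparison 0 of 6 members passed with any library left out.

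**Figure D2:**
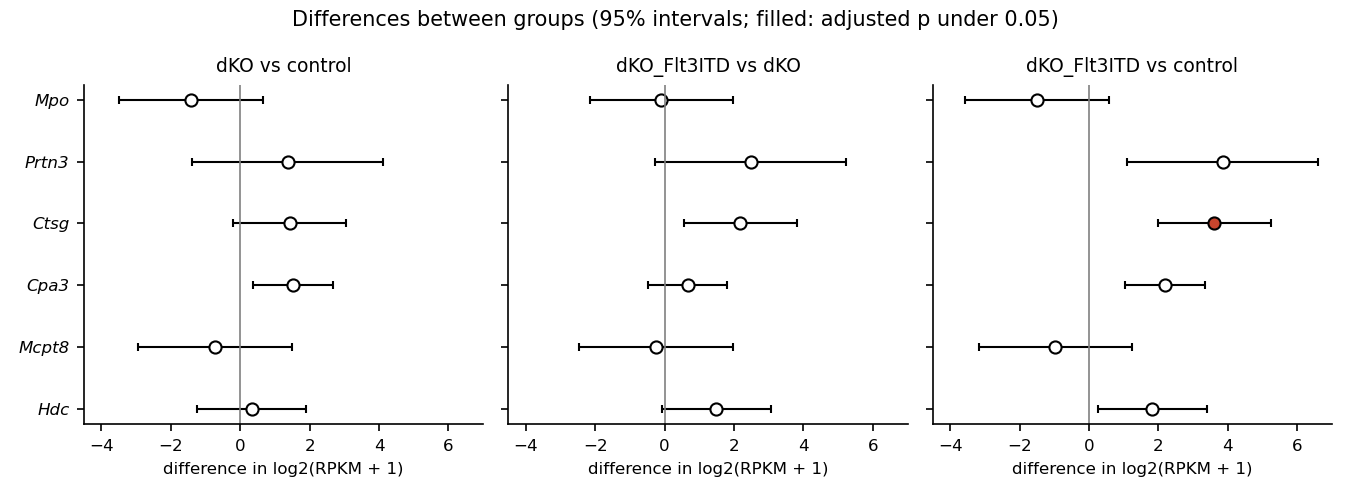
Difference in log2(RPKM + 1) between groups on the horizontal axis for each of the 6 tested members, in 3 panels for the 3 comparisons, with 95% limma intervals as bars, a grey line at 0 and filled points for an adjusted p under 0.05. Ctsg in dKO_Flt3ITD against control is the filled point. Its interval runs from 1.98 to 5.23, and the intervals of Mpo and Mcpt8 include 0 in all 3 comparisons.

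**Figure D3:**
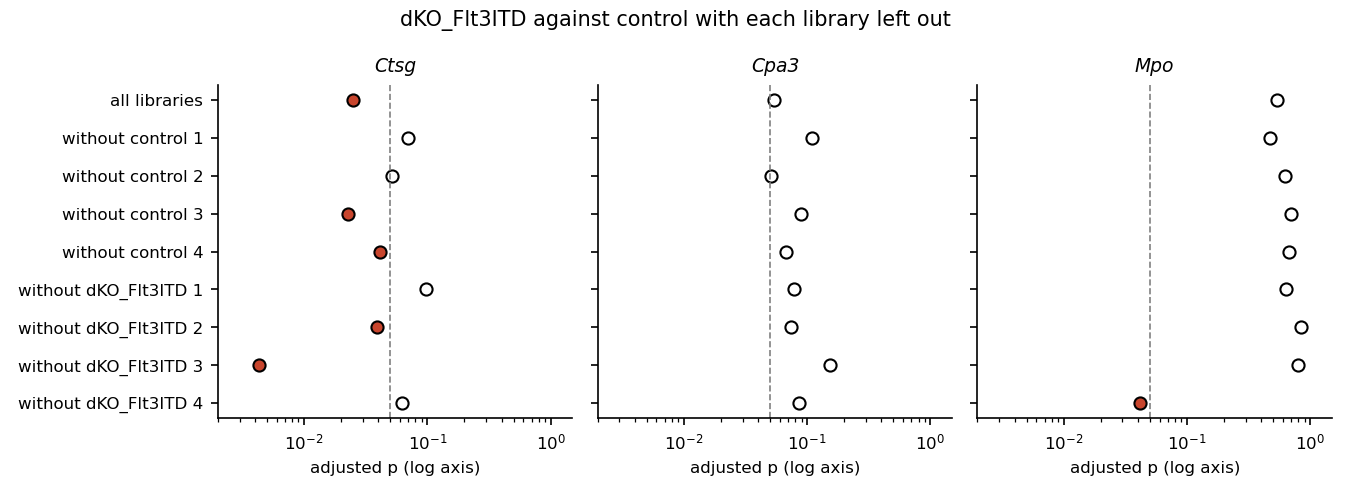
Adjusted p (log axis, limma) of Ctsg, Cpa3 and Mpo in dKO_Flt3ITD against control, with all libraries and with each of those 8 libraries left out in turn, a dashed line at 0.05 and filled points below it. Ctsg is above the line without control 1, control 2, dKO_Flt3ITD 1 or dKO_Flt3ITD 4, Cpa3 is above it in every row, and Mpo is below it without dKO_Flt3ITD 4.

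Ratios within a library show how the granule transcripts were made up, since they do not depend on its scaling. They were chosen after the values were seen and carry no test. Within the control libraries the Ctsg to Mpo ratio was 0.00669 to 0.0596, with Mpo far above Ctsg. That ratio was 0.188 to 0.583 in dKO libraries and 3.25, 5.53, 1.19 and 0.302 in dKO_Flt3ITD libraries, so neither group overlapped with control. The Cpa3 to Mpo ratio was 0.245 to 0.875 in controls, 1.59 to 8.41 in dKO, and 3.36, 23.8, 43.9 and 0.441 in dKO_Flt3ITD libraries. For this ratio dKO stood apart from control, and dKO_Flt3ITD 4 lay inside the control range. Other ratios separated less. The Mcpt8 to Cpa3 ratio overlapped, at 0 to 0.162 in controls, 0 to 0.0992 in dKO and 0 to 0.0388 in dKO_Flt3ITD libraries. The Hdc to Cpa3 ratio overlapped as well. For Prtn3 to Mpo, dKO (0 to 0.328) overlapped with control (0 to 0.0309), and dKO_Flt3ITD (0.0430 to 0.978) did not. The share of all gene pairs that separate in this way was not determined.

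The neighbouring genes Elane and Prtn3 did not have a fixed ratio. Elane was at 0.159, 0.351, 0.00467 and 0.385 of Prtn3 in dKO_Flt3ITD 1 to 4, and at 0.151 in dKO 2. In dKO_Flt3ITD 3 there was 1 Elane read beside 226 Prtn3 reads, and in dKO 1 there was none beside 132. The ratio in dKO_Flt3ITD 2 rests on 2 and 6 reads.

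**Figure D4:**
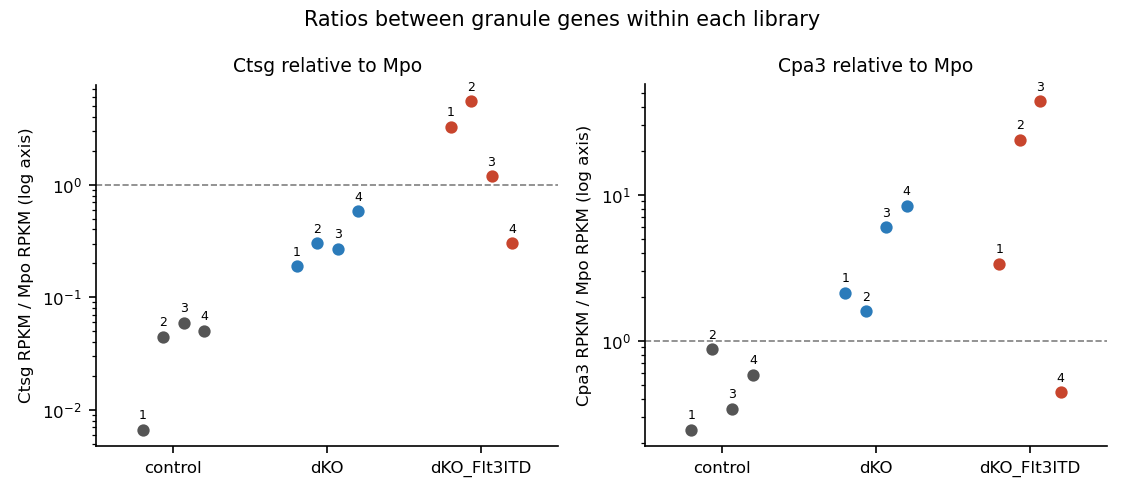
Ratio of Ctsg to Mpo and of Cpa3 to Mpo RPKM within each library, on a log axis, with a numbered point per library, groups along the horizontal axis and a dashed line at equal levels. For Ctsg to Mpo the highest control is 0.0596 and the lowest library with Rag1Cre+ is 0.188, and for Cpa3 to Mpo dKO_Flt3ITD 4 (0.441) is inside the control range.

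dKO_Flt3ITD 4 stands apart by these genes. It was the highest library for 4 of the 6 tested members, and for 7.65% of all tested genes. Hdc and Prtn3 are among those 4 and met the filter only with their dKO_Flt3ITD libraries counted, so no conclusion is drawn from this count. The 7 members summed to 1679 RPKM in dKO_Flt3ITD 4, against 239 to 604 in the other dKO_Flt3ITD libraries and 83.3 to 335 in controls. Other myeloid genes were not uniformly high there. Of 10 granulocyte transcription factor genes in the table, dKO_Flt3ITD 4 was the highest of the 12 libraries for 2, Cebpb and Gata2, and of 9 receptor genes for 2, Csf2rb and Fcgr3. Of 15 mast cell and basophil genes it was the highest for 3, of 3 erythroid and megakaryocyte genes for 3, and of 6 other neutrophil granule genes for 0. The genes named in this paragraph were picked after their values were seen. Gata2, a transcription factor gene of mast cells and basophils, was at 45.6 RPKM there and at most 8.60 elsewhere, and the Fc receptor gene Fcgr3 at 53.9 against at most 7.38. Gfi1, a transcription factor gene of granulocyte differentiation, was at 1.42 RPKM there, below the other 7 libraries with Rag1Cre+ (3.55 to 14.7).

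Early T-lineage genes were also mixed in this library. Of 14 in the table it was lower than the other libraries for 4, Notch1, Hes1, Gata3 and Lck, and for the other 10 it was inside their range or tied with its end. Notch1 was at 2.10 RPKM against 21.3 to 40.5 in the other 11, Hes1 at 6.87 against 32.4 to 125, and Gata3 at 7.10 against 15.5 to 53.0. Flt3 (70.1 RPKM) and Cd44 (62.6 RPKM) from the same list were higher there than in the other 7 libraries with Rag1Cre+, where they reached at most 38.7 and 56.2, and Kit, at 40.0 RPKM, was within the range of the other libraries. The part of these other genes in the granule gene values was not tested.

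**Figure D5:**
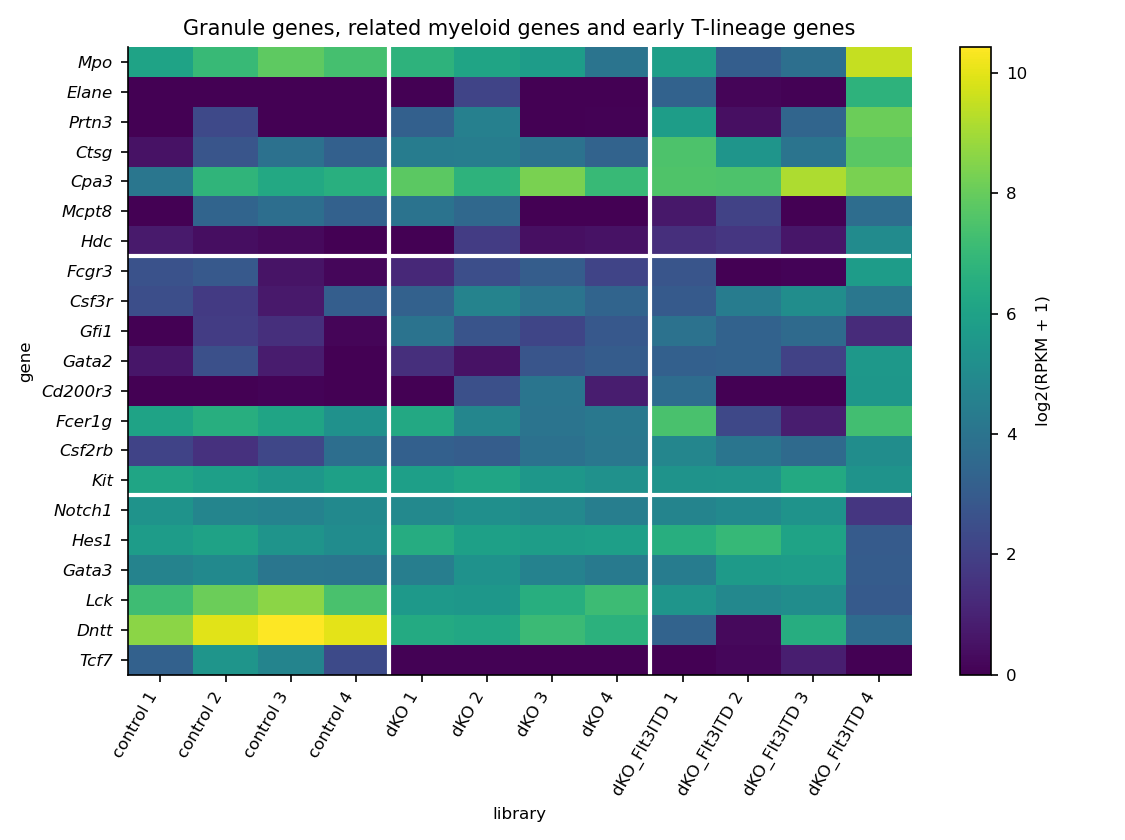
Heatmap of log2(RPKM + 1) for the 7 granule genes (top), 8 related myeloid genes (middle) and 6 early T-lineage genes (bottom), with a column per library, a row per gene and brighter colours for higher levels. The middle block holds granulocyte receptor and transcription factor genes, and Cd200r3 and Fcer1g from the mast cell and basophil list. The genes below the top block were picked after their values were seen. In dKO_Flt3ITD 4, Mpo, Elane, Prtn3, Ctsg, Hdc, Gata2 and Fcgr3 were at their highest and Notch1, Hes1, Gata3 and Lck at their lowest of the 12 libraries, while Gfi1 (1.42 RPKM) was lower than in the other libraries with Rag1Cre+ and Kit was within the range of the others.

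Further genes listed beside these enzymes gave few calls. On the list of other neutrophil granule genes, 6 of 19 are in the table and 4 were tested. Mgst1, on that list though it encodes a microsomal glutathione transferase, rose from control to dKO (log2 fold change 3.76, adjusted p = 0.0171, limma). It was at 2.99 in dKO_Flt3ITD against control (adjusted p = 0.0575). The list's other 3 tested genes did not pass in dKO against control. Of 15 genes for processing, inhibiting or storing granule proteases, 14 were tested and none passed in the 3 comparisons by limma. An unadjusted limma p was under 0.05 for 1, 1 and 0 of the 14, against 9.18%, 7.71% and 13.4% of all genes. Srgn, the storage proteoglycan gene, had the highest mean of these, with 831 to 1228 RPKM in controls, 1229 to 2138 in dKO and 957 to 2074 in dKO_Flt3ITD libraries. Srgn was thus abundant in every library, also where Elane and Prtn3 were listed at 0.

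Of 32 mast cell and basophil genes, 15 are in the table and 12 were tested, and Il4, a cytokine gene of basophils, mast cells and T cells, rose both from control to dKO (log2 fold change 6.43, adjusted p = 1.48e-07, limma) and from control to dKO_Flt3ITD (6.81, adjusted p = 5.89e-08). The other 11 did not pass. Il5ra, the interleukin-5 receptor gene and the 1 tested gene of the 9 on the eosinophil list, was at 1.43 in dKO_Flt3ITD against control (adjusted p = 0.177, limma) with no overlap between the groups. Of 8 tested transcription factor genes of granulocyte differentiation none passed. An unadjusted limma p was under 0.05 for 2, 2 and 4 of these 8, against 9.18%, 7.71% and 13.4% of all genes. Myb, with the highest mean, held 38.5 to 135 RPKM over the 12 libraries. Of 8 tested receptor genes none passed (unadjusted for 3, 1 and 4, against the same shares of all genes). Kit, the stem cell factor receptor gene and highest of these, held 38.2 to 78.8 RPKM. Of 12 tested genes at the members' loci, members included, Ctsg alone passed, in dKO_Flt3ITD against control.

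Markers of other cell types that a sort could hold were read as sums. The granulocyte-monocyte progenitor list (7 of 10 in the table, Elane, Mpo, Prtn3 and Ctsg among them) summed to 76.3 to 246 RPKM in controls, 43.3 to 157 in dKO and 79.5 to 1388 in dKO_Flt3ITD libraries. The mature neutrophil list (2 of 10, Csf3r and Ltf) summed to 0.639 to 20.8, 9.91 to 24.5 and 6.64 to 33.4 RPKM. Csf3r is also on the granulocyte-monocyte progenitor list, so the sum is not particular to mature neutrophils. Ltf, named after its values were seen, was highest in control 4 (13.1 RPKM). It was at 0 in dKO_Flt3ITD 1, 2 and 3 and at 3.70 RPKM in dKO_Flt3ITD 4. The mast cell and basophil markers (4 of 10, members among them) summed to 17.4 to 127, 121 to 325 and 197 to 570 RPKM. Cpa3 made up most of the sum in every library, and the highest sum of each group held 113, 319 and 566 RPKM of it. Mcpt8 went the other way, with group means of 7.62, 6.29 and 4.04 RPKM and overlapping groups. Outside dKO_Flt3ITD 4, Hdc reached at most 2.59 RPKM and Gata2 at most 8.60, against 31.8 and 45.6 RPKM there. The sums are thus mainly a reading of Cpa3. Macrophage and monocyte markers (10 of 11) summed to 28.5 to 71.7, 56.8 to 127 and 40.5 to 122 RPKM, and of 9 tested Mrc1 rose in dKO against control (log2 fold change 2.66, adjusted p = 0.0163, limma) and Emr1 in dKO_Flt3ITD against control (3.50, adjusted p = 0.0481). Erythroid and megakaryocyte markers (3 of 11) summed to 3.93 to 11.6, 0.279 to 18.96 and 3.54 to 55.5 RPKM. Pf4, named for this after its values were seen, was at 0 in all controls, in dKO 1, 2 and 3 and in dKO_Flt3ITD 2 and 3. It was at 4.29 RPKM in dKO 4, 3.50 in dKO_Flt3ITD 1 and 25.1 in dKO_Flt3ITD 4. The dendritic cell (6 of 7 in the table), B cell (2 of 6) and natural killer and innate lymphoid (2 of 7) lists had 2, 1 and 1 tested genes, and none passed in any comparison by limma. Of 13 tested early T-lineage genes, Tcf7 and Cd7 fell in dKO, and 5 fell in dKO_Flt3ITD against control by limma, Dntt, Tcf7, Lck and Cd7 among them. The part of these lists in the values of the granule genes was not tested.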

How the data were processed

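Expression was measured by RNA-seq in 12 libraries, 4 per group, grouped by the titles in the labels. The authors deposited 1 table of RPKM values per gene. The submitters' processing notes name the build mm10, HTSeq 0.5.4p5, TopHat2 2.0.10 and SAMtools 0.1.19, with no further settings given in the sources used here. Amplification from 100 cells and scaling by library can both move low values. RPKM values were whole multiples of 1 read for 99.96% of genes (tolerance 0.001 reads), which gave the totals per library. The limits of 3 reads cover counting error only, while the limma intervals are built from the spread between libraries.

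All 10690 genes that passed the filter were fitted on log2(RPKM + 1) with limma 3.58.1 in R 4.3.3, with an intensity trend and all 3 groups in 1 fit. P-values were adjusted by Benjamini-Hochberg over all of them, with a threshold of 0.05. A fold change on this scale understates the change of low genes. The script was tested on simulated data. Values were summarised with Python 3.11.15, numpy 2.4.6, pandas 2.3.3 and matplotlib 3.10.9.

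The members and lists were chosen with earlier results of these data known. Named from each further list are up to 4 genes that passed, otherwise the gene with the highest mean, and for likeness the 2 genes with the highest Pearson r, of which 1 is not reported here. Genes outside this rule are marked as picked after their values were seen. The alternatives were another pseudocount, filter, scaling or weighting, limma-voom on recovered reads, a replicate block and leaving out each library.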

Additional observations from a re-analysis of the deposited data

Results flagged for a closer look

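Of the 7 genes in 3 groups of 4 libraries, 20 of 21 sets of values had a range, and in 6 of them the highest library was set apart by more than Dixon's 95% critical value for the gap to the next library. Both the highest and the lowest library were examined, and chance sets either end apart by that much in about 1 in 20 sets of normally distributed values. That rate does not hold for skewed RPKM, or for the 2 sets with 3 libraries at 0, which exceed the value whatever the other library holds. In dKO_Flt3ITD 4 these were Mpo at 721 RPKM, Elane at 105 RPKM and Hdc at 31.8 RPKM. In dKO 2 they were Elane at 3.35 RPKM, where the other 3 libraries are listed at 0, and Hdc at 2.59 RPKM. In control 2 it was Prtn3 at 3.98 RPKM, where the other 3 controls are listed at 0.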

How the results depend on the processing

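In dKO_Flt3ITD against control, 1 of 6 granule genes passed. That count was 0 with a pseudocount of 0.1, with no filter, with the 8 libraries of the comparison alone, with limma-voom or with the replicate block, and 2 with a pseudocount of 5, a filter of 5 RPKM or scaling to a common upper quartile. Leaving out 1 library gave 0 to 2. The cause of these moves was not tested, beyond fewer libraries or another set of genes tested. Without control 1 and dKO_Flt3ITD 4 together, a choice made after seeing the data, Mpo passed (log2 fold change -3.15, adjusted p = 0.0337, limma) and Ctsg did not (2.39, adjusted p = 0.106). In the other 2 comparisons the count was 0 under all 24 alternatives. With the block, the adjusted p of Ctsg was 0.0604 (limma), but the replicate numbers do not pair the libraries: same-numbered libraries correlated at -0.147 to 0.126 and 2 of 12 libraries were closest to their own number. Signs turned for 3 values near 0, none of which passed. For Hdc in dKO against control, leaving out 1 library gave -0.045 to 0.57, the lowest without dKO 2. For Mpo in dKO_Flt3ITD against dKO a pseudocount of 5 gave 0.026, and leaving out 1 library -1.40 to 0.72. For Mcpt8 in that comparison a pseudocount of 0.1 gave 0.22, array weights 0.46, limma-voom 0.87, and leaving out 1 library -0.95 to 0.44. Over all genes, the 109 calls in dKO against control became 5 to 210 over the alternatives, the 0 calls in dKO_Flt3ITD against dKO became 0 to 6, and the 160 calls in dKO_Flt3ITD against control became 27 to 235. Scaling to a fixed sum moved the median of all genes to -0.11, -0.10 and -0.22 in the 3 comparisons, and Ctsg was then at 3.53 (adjusted p = 0.0272, limma). A count model other than limma-voom was not run, since the deposited values are RPKM. Depth limits the low genes: under 3 reads, which is 0.107 to 0.164 RPKM for Prtn3 and Elane in controls listed at 0, a level cannot be told from 0.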

Other observations

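The genes whose log2(RPKM + 1) followed each member most closely over the 12 libraries, among 9201 genes, were named by Pearson r, as a description of libraries that share depth and group. For Cpa3 these were Aplp2 (r = 0.908) and Wdr53 (0.901), and without dKO_Flt3ITD 4 the r values were 0.903 and 0.899. For Ctsg, Nudt7 had an r of 0.893, and 0.855 without that library. Prtn3 was followed by Gnb5 (0.884) and the interleukin-6 receptor gene Il6ra (0.881), at 0.815 and 0.784 without it. Hdc was followed by Eps8 (0.960) and Dusp3 (0.934), at 0.881 and 0.704, and Mpo by Myadm (0.850) and Eif1ad (0.849), at 0.758 and 0.876. For Mcpt8 they were Adat2 (0.850) and the olfactory receptor gene Olfr648 (0.831), at 0.835 and 0.851.

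Prss57, a granule serine protease gene at the Prtn3 and Elane locus, was picked after its values were seen. It held 6.86, 8.87, 9.90 and 17.6 RPKM in controls, 0.0667, 1.97, 4.42 and 1.81 in dKO and 15.7, 3.13, 1.89 and 4.65 in dKO_Flt3ITD libraries. All dKO libraries were below all controls, and the log2 fold change was -2.09 (adjusted p = 0.153, limma). In dKO_Flt3ITD 4, the library with the highest Prtn3 and Elane, Prss57 was below every control.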
